A study of Sus scrofa with 6 samples.

Results

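RNA polymerases I, II and III and the factors that bring them to genes were followed in mature pig oocytes. Members were the probe sets whose single gene symbol in the platform annotation began with POLR1, POLR2, POLR3, GTF2, GTF3, TBP, SUPT3 to SUPT7, ELL or TCEA, or with TAF or MED and a digit, or was CCDC101. This rule found 99 probe sets of 65 genes among 10069 probe sets with 1 symbol and 23999 non-control probe sets in all. Oocytes of 2 groups were measured, adult (from sows, described in the labels as developmentally competent) and prepubertal (from gilts, described as incompetent), with 3 Affymetrix arrays each that the labels call biological replicates. In both groups the oocytes came from follicles of 2 to 6 mm, were matured in culture for 42 to 44 h, were stripped of cumulus cells with hyaluronidase, and had extruded the first polar body, the sign of metaphase II. Neither breed nor the number of females or oocytes behind an array is given in the sources used here, so p-values measure only the spread between these samples, which may in part be technical.

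Polymerase I makes the large ribosomal RNA precursor, polymerase II makes messenger RNA, and polymerase III makes transfer RNA and other short RNAs. Polymerase II starts with the general factors TFIIA, TFIIB, TFIID, TFIIE, TFIIF and TFIIH, while Mediator joins them to activators and elongation factors carry the enzyme through the gene. A growing oocyte transcribes strongly, but a fully grown one shuts transcription down before it resumes meiosis, so the mRNAs of this machinery at metaphase II are stored maternal messages. The zygote and early embryo use this store until their own genome is switched on. Poly(A) RNA was selected before labelling, so a signal reflects both how much of a message there is and how well its tail was captured. In such bulk samples fewer cells of a type and less RNA per cell cannot be told apart.

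The arrays were brought to a common level before comparison, because the deposited 2% trimmed mean signals ranged from 123 to 161 in adult and from 106 to 132 in prepubertal arrays (exact permutation p = 0.2, 2-sided, smallest possible 0.1). All signals below are after this scaling, and differences are adult minus prepubertal on the log2(signal + 16) scale. Prepubertal replicate 1 stood apart from its group. Over the tested probe sets it correlated at 0.976 with each of the 3 adult arrays but at 0.968 and 0.971 with the other prepubertal arrays. The other prepubertal arrays correlated at 0.974 with each other, and adult pairs at 0.978 to 0.980. Leaving it out turned the sign or moved the size by over 1.5 times for 28 of 64 tested member differences (of at least 0.1 with or without it), and many of these moves are given below. Of 7 oocyte marker genes with a probe set, 6 were tested, and their summed signal was 8306 to 9831 in adult and 10348 to 10746 in prepubertal arrays (exact permutation p = 0.1). Of 15 cumulus and granulosa marker genes 7 were tested. The summed signal was 1685 to 1937 in adult and 1832 to 2004 in prepubertal arrays. A large part of each sum came from 1 gene. This was H1FOO for the oocyte list, at a mean signal of 4668, and FDX1 for the cumulus and granulosa list, at 1252. Of the cumulus and granulosa list, AMH, CYP11A1, CYP19A1, FSHR, PTGS2, PTX3, STAR and TNFAIP6 were below the filter on low values. The other 7 genes passed it. The summed signals of theca and stroma, blood and immune and endothelial markers overlapped between groups, each list led by a single gene at a mean signal of 46.4 (COL1A2), 244 (HBB) and 48.7 (PECAM1). The part of these markers in the results below was not tested.

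No tested member gene of the transcription machinery passed the threshold between adult and prepubertal oocytes. Only the brighter 12000 probe sets by mean log2 value entered the test, a limit near a signal of 16.03, and 64 member probe sets of 52 genes were among them. With limma, 0 of the 64 had an adjusted p under 0.05, against 0.167% of all tested probe sets. At an unadjusted p under 0.05 there were 11 of 64 (17.2%), 6 higher and 5 lower in adult oocytes, against 11.0% of all tested probe sets (5.27% higher, 5.72% lower). The 3 adult and 3 prepubertal values did not overlap for 13 of 64 (20.3%), 5 higher and 8 lower in adult, against 16.3% of all tested probe sets (7.81% higher, 8.49% lower). Both shares were somewhat above the background, and none of these members reached the adjusted threshold. Each count includes 1 GTF2I probe set that was tested only through its prepubertal signal. The separations depended on the scaling. As deposited 10 of 64 lay higher in adult without overlap, against 17.1% of all tested probe sets, and 1 lay lower, against 1.81%. Of the 5 higher and 8 lower members, 4 and 1 were also separated as deposited, the 1 being GTF2I.

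The 64 differences were split evenly, 32 above and 32 below 0, where 47.0% of all tested probe sets lay above 0. Those below 0 include the GTF2I, GTF2H4 and dimmer POLR2B probe sets, which were tested only through their prepubertal signal. Their median was 0.01, against −0.02 for all tested probe sets, and the range was −1.29 to 0.58. In 35 of 64 the difference was under 0.2 in size, with a median standard error of 0.19. On the scale with the constant added before log2, the 95% interval of the difference lay inside a 2-fold change either way for 55 of 64. It lay inside a 1.5-fold change for 33. For most members a larger difference on this scale thus lay outside the interval. The added constant shrinks the folds of dim probe sets, so their signals themselves could differ by more than these folds. The split depended on the scaling. With the values as deposited 50 of 64 differences lay above 0, against 74.8% of all tested probe sets, and the median was 0.24, against 0.20. After quantile normalization 35 of 64 lay above 0, against 51.1%, and the median was 0.045, against 0.0072. In both settings 0 members passed the adjusted threshold, against 0.475% as deposited and 0.117% after quantile normalization. Array weights called 1 member (GTF2I, lower in adult), against 0.758% of all tested probe sets. Scaling to the hybridization controls called 6, against 6.64%: POLR2J, TAF15, 2 probe sets of TCEA1 and 1 of TAF1B higher in adult, and GTF2I lower.

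**Figure D1:**
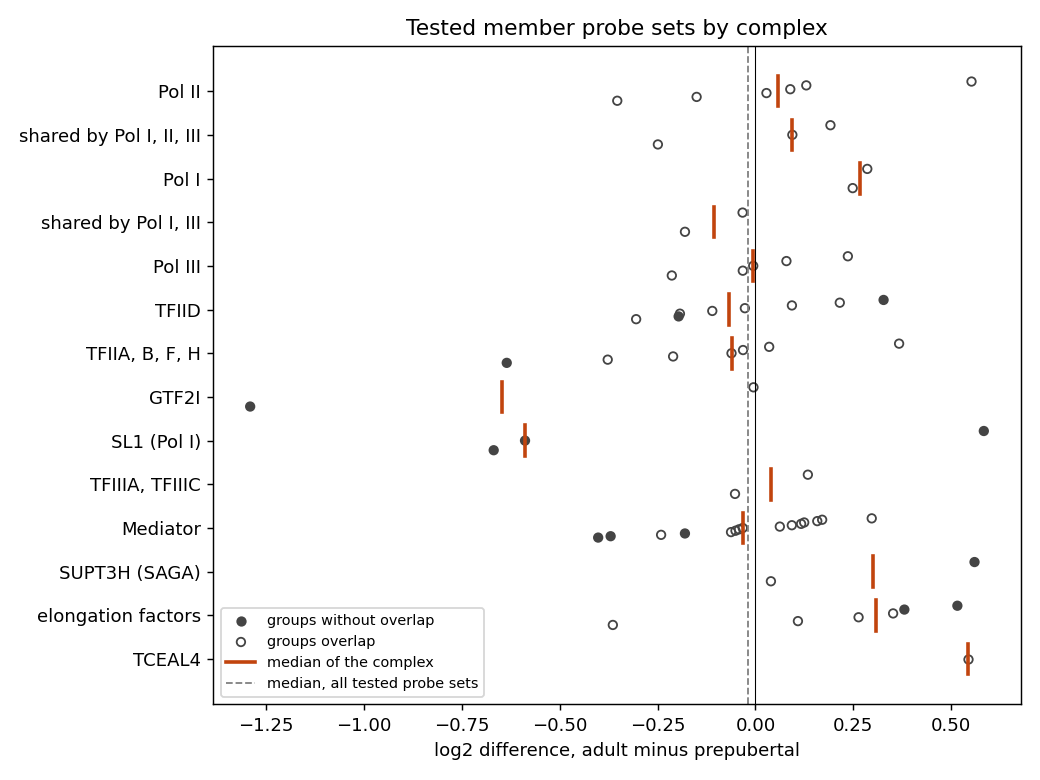
Log2 difference, adult minus prepubertal, of each of the 64 tested member probe sets (points), by complex. Filled points are probe sets whose groups do not overlap, red bars are the medians, and the dashed line is the median of all 12000 tested probe sets at −0.02. Most points lie within 0.4 of 0, and the point at −1.29 is the GTF2I probe set that was tested only through its prepubertal signal.

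Polymerase II was represented by 7 genes and 10 probe sets, of which 6 probe sets of 5 genes were tested. POLR2J, a small subunit of the enzyme's assembly platform, had the smallest p. Its signal was 1724, 2061 and 1537 in adult replicates 1 to 3 and 1652, 1146 and 903 in prepubertal replicates 1 to 3. Prepubertal replicate 1 lay within the adult range and the other prepubertal arrays below it, so the groups overlapped. The difference was 0.55 ± 0.19 (SE), 1.47-fold higher in adult, with a limma adjusted p of 0.305. Without prepubertal replicate 1 it was 0.78 with an adjusted p of 0.0246, in a fit that called 1.93% of all tested probe sets.

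The second largest subunit, POLR2B, which forms the catalytic cleft together with the largest, had 4 probe sets, 2 of them tested. The brighter had 124, 182 and 341 in adult against 247, 191 and 233 in prepubertal arrays, with adult values on both sides of the prepubertal range (−0.15 ± 0.27, adjusted p = 0.882). The dimmer had 14.0, 5.08 and 22.8 in adult against 12.9, 20.7 and 32.3 in prepubertal arrays, low in both groups. It was tested only through its prepubertal signal. POLR2C, the direct partner of POLR2J in the assembly platform, averaged 1571 in adult and 1425 in prepubertal oocytes (difference 0.13, adjusted p = 0.783), and POLR2M, a protein that binds the assembled enzyme, averaged 1954 in adult and 1835 in prepubertal oocytes (0.09, adjusted p = 0.845). POLR2G, of the stalk that binds emerging RNA, had a difference of 0.03. POLR2D and POLR2I did not reach the filter. The gene of the largest subunit, POLR2A, was not analysed here. Of the 3 measured subunits common to all 3 enzymes, POLR2E had 543, 590 and 516 in adult against 557, 470 and 517 in prepubertal arrays (0.09 ± 0.13, adjusted p = 0.845). POLR2H had 84.0, 87.6 and 65.0 in adult and 77.7, 119 and 95.0 in prepubertal arrays (−0.25 ± 0.20, adjusted p = 0.675) and POLR2L had a difference of 0.19 ± 0.33. The groups of all 3 overlapped.

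Polymerase I had 3 genes of its own. POLR1B, its second largest subunit, had 69.0, 126 and 93.6 in adult and 70.3, 70.1 and 82.5 in prepubertal arrays, with adult replicate 1 below every prepubertal value (0.29 ± 0.21, adjusted p = 0.648). POLR1E, which helps the enzyme to start, had 233, 256 and 298 in adult and 186, 240 and 229 in prepubertal arrays, again overlapping (0.25 ± 0.16, adjusted p = 0.600). POLR1A, the largest subunit, did not reach the filter. POLR1C and POLR1D, which polymerases I and III share, differed by −0.18 ± 0.35 and −0.03 ± 0.21. POLR1D had 120, 172 and 102 in adult and 142, 107 and 150 in prepubertal arrays, with the prepubertal values inside the adult range. POLR1C had 17.1, 10.5 and 26.1 in adult and 42.3, 7.31 and 23.4 in prepubertal arrays, so the adult values lay inside the prepubertal range.

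Polymerase III had 5 genes and 8 probe sets, of which 5 probe sets of 4 genes were tested. POLR3K, a small subunit that takes part in termination, had the smallest standard error of the 64. Its brighter probe set had 3114, 3362 and 3349 in adult and 3302, 3414 and 3328 in prepubertal arrays, a difference of −0.03 with a 95% interval of −0.245 to 0.18. The other gave −0.01 at a mean signal of 56.9 in adult and 56.5 in prepubertal oocytes. POLR3D, of the initiation and termination module, averaged 1165 in adult and 1106 in prepubertal oocytes (0.08, adjusted p = 0.859). POLR3A, the largest subunit, had 110, 83.0 and 94.1 in adult and 58.5, 87.9 and 92.3 in prepubertal arrays, and only prepubertal replicate 1 lay below all adult values (0.24 ± 0.20, adjusted p = 0.701; 0.07 without that array). POLR3GL, 1 of a pair of alternative subunits, had 22.1, 13.8 and 22.6 in adult and 24.1, 18.2 and 34.0 in prepubertal arrays (−0.21 ± 0.27, adjusted p = 0.815). POLR3C did not reach the filter.

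Set side by side, the median difference was 0.06 over the 6 tested probe sets of polymerase II, 0.27 over the 2 of polymerase I and −0.01 over the 5 of polymerase III. It was 0.09 over the 3 of the subunits common to all. The polymerase II values and the split of all polymerase probe sets include the dimmer POLR2B probe set. That probe set was tested only through its prepubertal signal, so the filter set its sign below 0. Across all 18 tested polymerase probe sets 10 lay above 0 and 8 below, and the median was 0.05. Of the 18, 0 separated the groups without overlap, against 16.3% of all tested probe sets. As deposited 3 of the 18 did, POLR1B, POLR1E and POLR2M, all higher in adult, against 17.1% of all tested probe sets. As deposited the medians were 0.30 for polymerase II, 0.50 for polymerase I, 0.23 for polymerase III and 0.35 for the common subunits, against 0.20 for all tested probe sets. On leaving out each array they ran from −0.023 to 0.12 for polymerase II, 0.18 to 0.40 for polymerase I, −0.052 to 0.074 for polymerase III and −0.14 to 0.15 for the common subunits. The polymerase I values came from a single probe set of each of 2 genes. Levels were not compared between enzymes, because each probe set has its own response.

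TFIID binds core promoters and holds TBP with its associated factors, the TAFs. Its 8 genes here were all TAFs, since TBP and its oocyte-specific relative TBPL2 were not analysed here, and 8 probe sets of 7 genes were tested. TAF15, an RNA-binding protein found in a part of TFIID, had 534, 493 and 421 in adult and 329, 415 and 401 in prepubertal arrays, with every adult value above every prepubertal one by a narrow margin (0.33 ± 0.15, 1.25-fold higher, adjusted p = 0.453). TAF11, a histone-fold subunit that contacts TFIIA, had 691, 831 and 700 in adult and 755, 992 and 1024 in prepubertal arrays, which overlapped (−0.30 ± 0.15, adjusted p = 0.477, and 0.12 with scaling to the hybridization controls). TAF13, its partner in the histone-fold pair, had 665, 628 and 619 in adult and 733, 453 and 491 in prepubertal arrays, so prepubertal replicate 1 was the highest of all 6 (0.22, adjusted p = 0.669; 0.42 and 0.150 without it). TAF10 had values between 80.7 and 103 in adult and between 104 and 116 in prepubertal arrays, which did not overlap (−0.20 ± 0.175, adjusted p = 0.711), but as deposited they overlapped and the difference was 0.034. TAF4B, a germ cell variant of TAF4 needed for oocyte development in mice, had 245, 174 and 181 in adult and 168, 269 and 182 in prepubertal arrays (−0.03 ± 0.20, and −0.15 without prepubertal replicate 1). TAF7 and both TAF9 probe sets differed by 0.09, −0.11 and −0.19. TAF12 did not reach the filter, and the median over the TFIID group was −0.07.

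Of the other general factors, TFIIA, TFIIB, TFIIF and TFIIH had 7 tested probe sets of 6 genes. GTF2H5, the smallest subunit of TFIIH, which stabilises this complex for DNA opening and repair, had 82.8, 87.2 and 74.9 in adult and 101, 139 and 176 in prepubertal arrays. All adult values lay below all prepubertal ones, with prepubertal replicate 1 nearest to them. The difference was −0.64 ± 0.20, 1.55-fold lower in adult, with an adjusted p of 0.265, and without prepubertal replicate 1 it was −0.82 with an adjusted p of 0.0473. As deposited the groups overlapped, at 104, 83.0 and 82.6 in adult and 103, 115 and 157 in prepubertal arrays. The TFIIH subunits GTF2H1 and GTF2H4 had differences of 0.03 and −0.38 (adjusted p = 0.975 and 0.667), the second of them at 12.8 in adult and 21.7 in prepubertal oocytes, and GTF2H3 did not reach the filter, nor did GTF2F1 of TFIIF.

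GTF2B, the single-chain factor TFIIB that bridges promoter and polymerase, had 1086, 1107 and 927 in adult and 1344, 840 and 1056 in prepubertal arrays. Its adult values lay inside the prepubertal range, and the difference was −0.03 with a 95% interval of −0.38 to 0.32. GTF2A2, the small subunit of TFIIA, averaged 1046 in adult and 1219 in prepubertal oocytes (−0.21, adjusted p = 0.592). GTF2F2, the small subunit of TFIIF, had 79.5, 74.3 and 93.6 in adult and 44.7, 59.1 and 80.8 in prepubertal arrays by one probe set (0.37 ± 0.21, adjusted p = 0.555), which overlapped. A second tested probe set gave −0.06 ± 0.23 (adjusted p = 0.950). The median over this group was −0.06, with GTF2H4 included, which was tested only through its prepubertal signal.

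GTF2I encodes TFII-I, a multifunctional DNA-binding factor that carries a general-factor name but is not needed at most promoters. One of its probe sets had 4.06, 7.69 and 14.4 in adult and 34.4, 47.0 and 50.7 in prepubertal arrays. Every adult value was below every prepubertal one, and the adult values lay under the filter, so the probe set was tested only through its prepubertal signal. Such a probe set had to differ between groups to be tested at all, so its adjusted p, 0.0862 with all arrays and 0.0379 without prepubertal replicate 1, is no support for a difference. No fold is given, because the size depends on the added constant, at −1.29 with 16, −2.34 with 1 and −0.57 with 64. The brightest probe set of the same gene had 502, 415 and 403 in adult and 475, 400 and 447 in prepubertal arrays, a difference of −0.01 with a 95% interval of −0.32 to 0.31. The other 2 did not reach the filter, at 2.18 to 23.8 in any array.

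**Figure D2:**
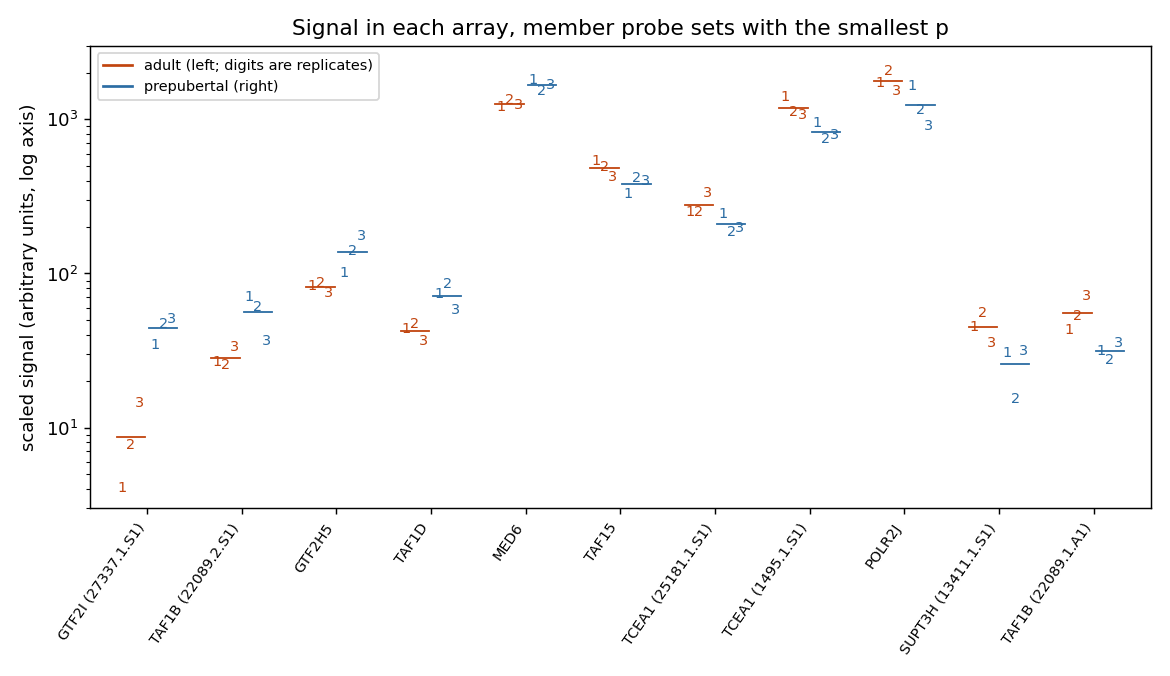
Scaled signal (log axis) in each array for the 11 member probe sets with an unadjusted p under 0.05, ordered by difference. Digits are replicate numbers, red on the left for adult and blue on the right for prepubertal oocytes, and lines are group means. GTF2I is at 4.06 to 14.4 in adult and 34.4 to 50.7 in prepubertal arrays, and the POLR2J value of prepubertal replicate 1 sits among the adult ones.

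SL1 brings TBP to the promoter of the ribosomal RNA genes for polymerase I, and its subunits TAF1B and TAF1D were measured. All 3 of their tested probe sets separated the groups, 1 higher and 2 lower in adult, against 7.81% and 8.49% of all tested probe sets. As deposited only the higher one did, against 17.1% higher and 1.81% lower of all tested probe sets. TAF1D had 43.6, 46.7 and 36.2 in adult and 73.1, 85.0 and 57.7 in prepubertal arrays (−0.59 ± 0.21, 1.50-fold lower in adult, adjusted p = 0.317). TAF1B had 26.5, 25.6 and 33.3 in adult and 70.1, 61.0 and 36.7 in prepubertal arrays by one probe set (−0.67 ± 0.24, adjusted p = 0.331). By another it had 43.3, 52.7 and 71.1 in adult and 31.2, 27.6 and 35.2 in prepubertal arrays (0.58 ± 0.225, adjusted p = 0.371). The 95% intervals of the 2 TAF1B probe sets, −1.19 to −0.145 and 0.096 to 1.07, did not meet, so the gene cannot be given a direction. All these signals were low, and the added constant of 16 shrinks their folds. For polymerase III, TFIIIA, the zinc-finger protein that also binds 5S ribosomal RNA, is encoded by GTF3A, which had 31.7, 23.7 and 26.1 in adult and 26.6, 29.4 and 30.0 in prepubertal arrays (−0.05 ± 0.23). GTF3C6, a TFIIIC subunit, had 102, 126 and 113 in adult and 109, 88.1 and 110 in prepubertal arrays (0.13 ± 0.18). The groups of both overlapped.

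Mediator had 16 genes and 19 probe sets, of which 15 probe sets of 13 genes were tested, 7 with values above 0 and 8 below, with a median of −0.03. MED6, a subunit of the head module, which contacts the polymerase, had 1201, 1339 and 1243 in adult and 1806, 1529 and 1685 in prepubertal arrays. Every adult value was below every prepubertal one, and prepubertal replicate 1 was the highest. The difference was −0.40 ± 0.12, 1.32-fold lower in adult, with an adjusted p of 0.210, and −0.35 without prepubertal replicate 1. As deposited, before scaling, it was −0.14 (adjusted p = 0.765), and with scaling to the hybridization controls it was 0.030.

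MED16, a tail subunit, had 23.8, 28.2 and 31.4 in adult and 36.2, 37.6 and 48.3 in prepubertal arrays, without overlap (−0.37 ± 0.225, adjusted p = 0.571), and with overlap as deposited (−0.19). MED21, of the middle module, had 381 to 445 in adult and 471 to 479 in prepubertal arrays, also without overlap (−0.18 ± 0.13, adjusted p = 0.643), but as deposited they overlapped and the difference was 0.077. The other Mediator probe sets overlapped between groups. MED6, MED16 and MED21 thus made 3 of 15 (20%) without overlap, all lower in adult. Of all tested probe sets 8.49% were lower without overlap and 16.3% separated in either direction. As deposited the groups overlapped for all 3. MED14, the backbone that links head, middle and tail, had 1225, 937 and 1173 in adult and 1190, 924 and 855 in prepubertal arrays (0.17 ± 0.15, adjusted p = 0.713). MED4 and MED27 had 2 tested probe sets each, which lay close together, at 0.16 and 0.12 for MED4 and −0.03 and −0.05 for MED27. MED17 and MED7 averaged 1675 and 1794 in adult and 1606 and 1867 in prepubertal oocytes, with differences of 0.06 and −0.06. MED18, MED19, MED20, MED10 and MED30 had differences between −0.24 and 0.30. MED1, the subunit that binds nuclear receptors, MED9 and MED11 did not reach the filter.

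Among coactivator and elongation genes, SUPT3H, a histone-fold subunit of the SAGA acetyltransferase complex, had 44.6, 55.5 and 35.3 in adult and 30.6, 15.4 and 31.5 in prepubertal arrays by one probe set (0.56 ± 0.25, adjusted p = 0.444), without overlap. By another it averaged 53.5 in adult and 51.1 in prepubertal oocytes (0.04 ± 0.21, adjusted p = 0.965). CCDC101, another SAGA gene, was not analysed here.

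TCEA1 encodes the elongation factor TFIIS, which rescues polymerase II that has stalled and slid back. It was measured by 3 probe sets, all tested and all with higher adult means. The brightest had 1389, 1124 and 1065 in adult and 944, 746 and 794 in prepubertal arrays, so all adult values lay above all prepubertal ones. Its difference was 0.52 ± 0.14, 1.43-fold higher, with an adjusted p of 0.180, and 0.61 with an adjusted p of 0.0509 without prepubertal replicate 1. The next had 251, 249 and 334 in adult and 245, 186 and 197 in prepubertal arrays, also without overlap (0.38 ± 0.17, adjusted p = 0.444), though as deposited the groups overlapped. The last had 297, 272 and 287 in adult and 306, 234 and 255 in prepubertal arrays and overlapped (0.11 ± 0.15, adjusted p = 0.843). Without prepubertal replicate 1 its difference was 0.21. Prepubertal replicate 1 was the highest prepubertal array in all 3.

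TCEA3, a TFIIS relative, had 2 tested probe sets with differences of 0.26 ± 0.20 and 0.35 ± 0.27 and overlapping groups. SUPT6H, a histone chaperone that travels with the polymerase, had 33.5, 33.9 and 20.9 in adult and 40.4, 54.3 and 33.1 in prepubertal arrays (−0.36 ± 0.24, adjusted p = 0.605). SUPT4H1 and TCEANC did not reach the filter, and SUPT5H and the ELL genes were not analysed here. The median over the 6 elongation probe sets was 0.31, but 5 of the 6 belong to TCEA1 and TCEA3, and with 1 probe set a gene, the one brightest in adult, the array medians overlapped, at −0.044, 0.18 and 0.11 in adult and −0.065, 0.059 and −0.056 in prepubertal arrays (log2 values minus each probe set's mean). TCEAL2 did not reach the filter. TCEAL4, which resembles TFIIS by sequence, had 36.4, 43.0 and 23.0 in adult and 2.50, 22.5 and 38.6 in prepubertal arrays, and its difference was 0.54 (adjusted p = 0.606), or 0.11 without prepubertal replicate 1.

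**Figure D3:**
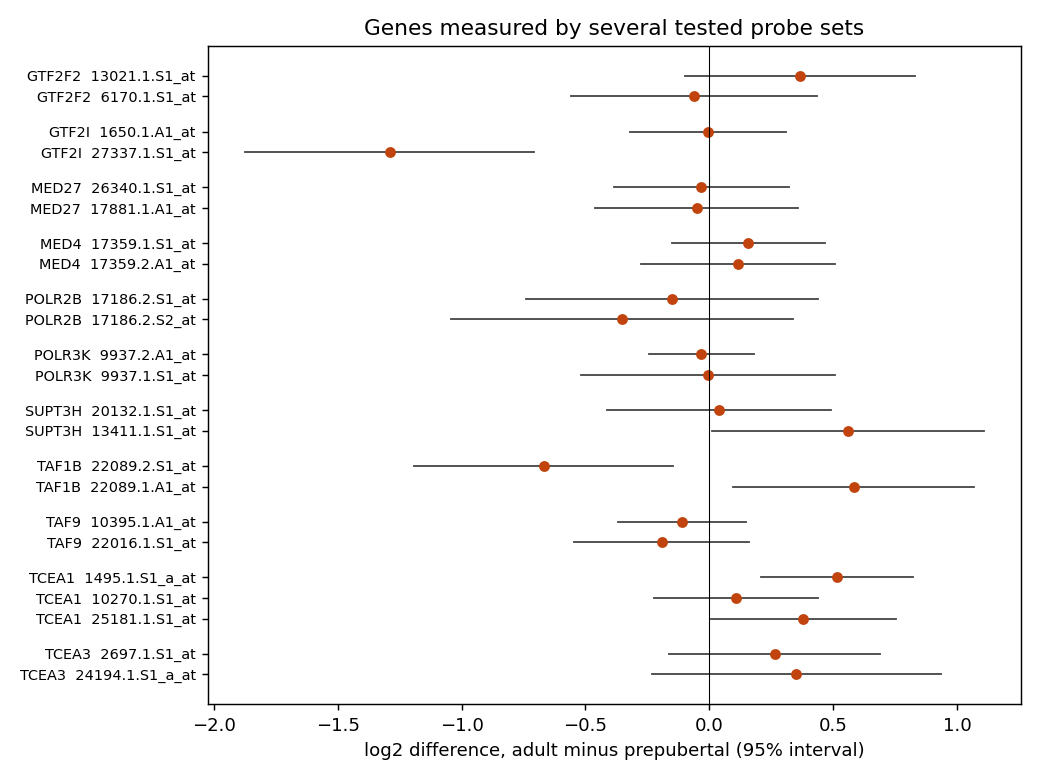
Log2 difference, adult minus prepubertal, with its 95% interval for the 11 genes that had 2 or more tested probe sets, the probe set with the highest prepubertal mean on top for each gene. The 3 TCEA1 points lie above 0, while the intervals of the TAF1B pair do not meet. The lower GTF2I and lower POLR2B points were tested only through their prepubertal signal.

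In all, 11 genes had 2 or more tested probe sets, and in 9 of them the differences had the same sign. The exceptions were TAF1B and GTF2F2. Among the 9 were GTF2I and POLR2B, each with a probe set that was tested only through its prepubertal signal. The filter set the sign of that probe set, so the same sign in these genes is no support for a difference. The sign alone hides unequal sizes, as in SUPT3H (0.56 and 0.04).

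Each array was left out in turn. Without prepubertal replicate 1, 3 of 64 members passed an adjusted p of 0.05, POLR2J higher in adult, GTF2H5 lower, and the GTF2I probe set that was tested only through its prepubertal signal, while 1.93% of all tested probe sets did. Leaving out any of the other 5 arrays gave 0 members. Differences that moved toward 0 without it were those of GTF2F2 (0.20 without it), POLR1E (0.15), GTF2A2 (−0.11) and GTF2H4 (−0.23), and of TCEA3, whose probe sets were at 0.22 and 0.12 without it. Differences that moved away from 0 were those of MED14 (0.31 without it), MED18 (0.34), POLR2C (0.22), POLR2L (0.41), POLR2H (−0.38) and the dimmer POLR2B probe set (−0.53). The sign turned for GTF2B (0.14 without it), POLR1C (0.13) and the dimmer POLR3K probe set (0.13). Prepubertal replicate 1 had the highest of the 3 prepubertal values in 28 of 64 members (43.8%), against 31.4% of all tested probe sets, and among these were all 3 TCEA1 probe sets, POLR2J, POLR2C, POLR2E, POLR3D, TAF13, GTF2B and MED14. It was the prepubertal array nearest to the adult mean in 25 of 64 members (39.1%), against 40.5% of all tested probe sets.

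**Figure D4:**
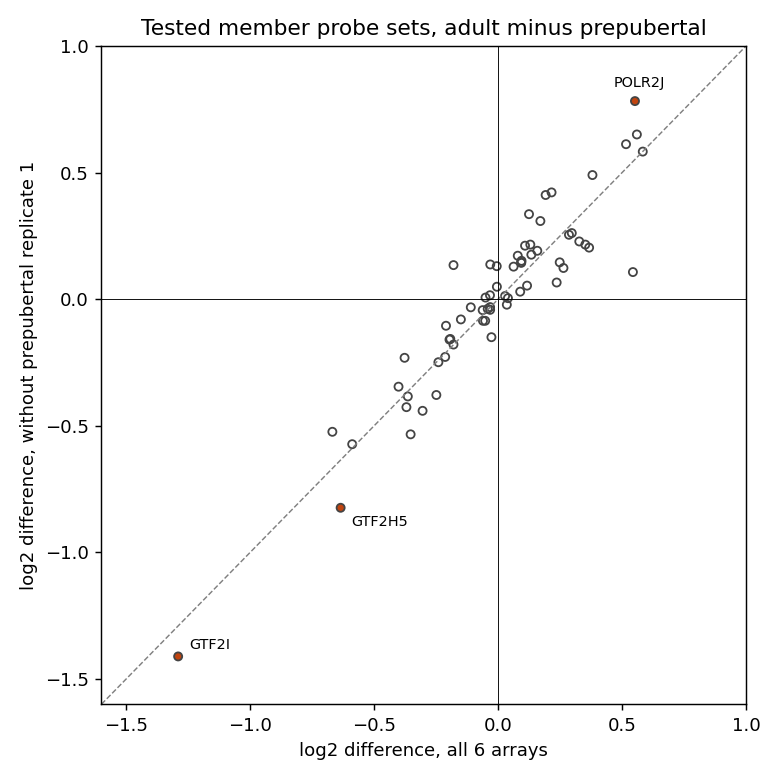
Log2 difference, adult minus prepubertal, of the 64 tested member probe sets with all 6 arrays (x axis) and without prepubertal replicate 1 (y axis), with the line of equality dashed. Filled points have an adjusted p under 0.05 without that array: GTF2I at −1.41, GTF2H5 at −0.82 and POLR2J at 0.78.

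The 35 member probe sets that were not tested had group means of at most 20.1, and for 13 of the 65 genes no probe set was tested. A low signal on one probe set does not show that the message was absent, since 12 of the 21 genes with several probe sets had a tested one beside an untested one. Of the 64 that were tested, 3 passed only through their prepubertal signal: the GTF2I, GTF2H4 and dimmer POLR2B probe sets.

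Partners of these complexes whose symbols fall outside the rule were followed in 7 lists of 31 genes with a probe set, and 0 of their 27 tested probe sets passed the threshold, against 0.167% of all tested probe sets. The groups did not overlap for 4 of 27 (14.8%), all lower in adult, against 16.3% in either direction and 8.49% lower. CDK7, the kinase of TFIIH, averaged 276 in adult and 375 in prepubertal oocytes without overlap (−0.42 ± 0.18, adjusted p = 0.420), but with overlap as deposited (−0.17). PAF1, of an elongation complex, averaged 405 in adult and 525 in prepubertal oocytes (−0.36, adjusted p = 0.357; −0.10 as deposited), though a dimmer PAF1 probe set was at 0.10. BRF2, which starts polymerase III at the U6 RNA gene, averaged 42.2 in adult and 73.3 in prepubertal oocytes (−0.59, adjusted p = 0.353). Its other probe sets did not reach the filter, and the brighter of them went the other way, at 19.2 in adult and 13.6 in prepubertal oocytes. TADA3 had the smallest p of the 3 SAGA genes outside the rule (0.27, adjusted p = 0.697). TFAM, the mitochondrial transcription activator, had that of its list (−0.20, adjusted p = 0.814). It averaged 21.2 in adult and 26.6 in prepubertal oocytes without overlap, but with overlap as deposited (−0.048). The other TFAM probe sets did not reach the filter. The 6 tested genes of polymerase assembly and tail phosphatases all had values above 0, against 47.0% of all tested probe sets. Their median was 0.18, and 0 of the 6 separated the groups. The largest difference was that of the assembly factor RPAP3, at 1543 in adult and 1277 in prepubertal oocytes (0.28, adjusted p = 0.496). The 1 Mediator kinase gene with a probe set did not reach the filter. NELFB, of the complex that pauses polymerase II, had 269, 313 and 305 in adult and 215, 472 and 546 in prepubertal arrays, which overlapped (−0.36, adjusted p = 0.643). Without prepubertal replicate 1, which lay below every adult value, it was −0.75 with an adjusted p of 0.0278, in the fit that called 1.93% of all tested probe sets. It was chosen for mention after its values were seen.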

How the data were processed

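Per the labels' protocols, polyadenylated RNA was bound to beads and amplified in 2 cycles before hybridization. The deposited signal of each probe set is linear and comes from MAS5, per the submitters' processing notes, with neither version nor scaling target stated there. The table held 24123 probe sets, of which 124 controls were left out of the tests. Each array was multiplied by 1 constant to bring its 2% trimmed mean to the geometric mean of the 6 (129), as MAS5's own scaling step does, 16 was added, and log2 was taken. Probe sets with a mean at or above the median were fitted with limma 3.58.1 in R 4.3.3 (lmFit, eBayes with an intensity trend, 2-sided, Benjamini-Hochberg over 12000 probe sets, threshold 0.05); every adjusted p given is limma's. The fit was tested on simulated data. The number of arrays limits the precision. Symbols came from the platform annotation, and all 99 members matched a RefSeq gene (Sscrofa11.1) of the same symbol; positions are left out, since no build goes with the values. The members, lists, main scaling and alternatives were chosen with earlier results of these data known. Named by rule were members past the threshold, the 2 genes of each complex with the smallest unadjusted p, and 12 genes listed by name, of which POLR2A, TBP, TBPL2, CCDC101 and SUPT5H were not analysed here; TAF4B, TAF10, TAF13, MED21 and other members were named after their values were seen, to account for every gene. Alternatives were other scalings, added constants, filters and variance settings, weighted arrays, a replicate block, and the fit without each array. No value column was left unmatched (0).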

Additional observations from a re-analysis of the deposited data

How the results depend on the processing

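The count of members past the threshold was 0 in the fit reported and under other constants, filters, variance models, quantile normalization, median centring, the values as deposited and the replicate block. It was 1 with array weights (GTF2I, adjusted p = 0.0395) and 6 with scaling to the hybridization controls, and 0 to 3 on leaving out each array. Over all tested probe sets the count of 20 (16 higher and 4 lower in adult) was 57 as deposited (53 and 4), 14 after quantile normalization (11 and 3), 5 after median centring (4 and 1) and 797 with scaling to the hybridization controls (788 and 9). It was 3 and 8 with constants of 1 and 4, 3 without a filter, 41 among the 6000 brightest, 0 with limma without a trend (1160 at an unadjusted p under 0.05), 91 with array weights, and 2 to 232 on leaving out each array, 232 being without prepubertal replicate 1 and 2, 4, 4, 6 and 3 without the others. The members' median of 0.01 was 0.24 as deposited, 0.10 after median centring, 0.40 with scaling to the hybridization controls and 0.084 among the 6000 brightest. The median of all tested probe sets was then 0.20, 0.069, 0.34 and −0.00042. The cause was not tested.

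Of the 31 named probe sets, 21 kept their direction under every alternative run. With scaling to the hybridization controls the sign turned for GTF2B (0.40), GTF2I's brighter probe set (0.42), GTF3A (0.23), MED6 (0.030), POLR1C (0.060), POLR1D (0.35), POLR2B's brighter probe set (0.25), POLR2H (0.12), POLR3GL (0.050) and TAF11 (0.12). As deposited it turned for GTF2B (0.23), GTF2I (0.25), GTF3A (0.12), POLR1D (0.20) and POLR2B (0.094), after median centring for GTF2B (0.076), GTF2I (0.10), GTF3A (0.017) and POLR1D (0.062), after quantile normalization for GTF3A (0.0092), and with array weights for GTF2B (0.021) and POLR1D (0.012). On leaving out each array the difference ran from −0.20 to 0.14 for GTF2B, −0.10 to 0.053 for GTF2I, −0.13 to 0.0064 for GTF3A, −0.53 to 0.13 for POLR1C, −0.22 to 0.11 for POLR1D and −0.52 to 0.16 for POLR2B. The dimmer GTF2I probe set ran from −2.34 with a constant of 1 to −0.57 with 64, and over all alternatives its adjusted p ran from 0.0351 to 0.310. Same-numbered adult and prepubertal arrays deviated together at correlations of 0.023 to 0.081, and arrays of unlike numbers at −0.053 to 0.030. The deviations of adult replicate 3 correlated at 0.030 with prepubertal replicate 2 and 0.029 with prepubertal replicate 3. Whether the numbers pair the samples was not tested. With the replicate block the count over all probe sets was 66, and of members 0, at a median of 0.01.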
